A study of Oryctolagus cuniculus with 4 samples.

Results

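The genes described here are the 7 mitochondrially encoded subunits of respiratory complex I, ND1 to ND6 and ND4L, in RNA from cultured tendon stem/progenitor cells of New Zealand White rabbits. They are 7 of the 29587 genes listed in the count tables. The tables give Ensembl identifiers without symbols, and 0 of the identifiers matched the gene table used for names, so the members were found by position. The mitochondrial sequence holds 37 listed genes, of which 15 have at least 200 bases. In order of their start these were taken as 12S, 16S, ND1, ND2, COX1, COX2, ATP8, ATP6, COX3, ND3, ND4L, ND4, ND5, ND6 and CYTB, the conserved mammalian order. Lengths and strand bore the order out: 1 of the 15 genes lies on the minus strand, in the place of ND6, the gene in the place of ND5 is the longest at 1812 bases, and the shortest coding genes lie in the places of ATP8, ND4L and ND3.

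The study compared cells grown without platelet-rich plasma (noPRP) with cells grown in medium that held 10% (v/v) platelet-rich plasma (PRP), a platelet concentrate that carries growth factors. Each group has 2 libraries, made from messenger RNA purified on magnetic beads. The labels give no time in culture, passage or number of animals, so the 2 libraries of a group may be separate cultures or repeat preparations. All p-values here rest on these libraries only, and the spread between them may be technical. The tests of single gene levels also borrow from the spread of the other tested genes. Because no identifier carries a name, the labelled cell type was not checked against tendon markers, and markers of platelets, leukocytes and other cells were not analysed here.

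Complex I (NADH:ubiquinone oxidoreductase) takes electrons from NADH, passes them to ubiquinone and pumps protons across the inner mitochondrial membrane. Its L-shaped structure has an arm in the matrix, built from nuclear-encoded proteins, and an arm in the membrane whose core is formed by the ND proteins. ND2, ND4 and ND5 are the antiporter-like subunits of the proton channels, while ND1, ND3, ND4L and ND6 lie at or near the junction with the matrix arm, where ubiquinone binds. The mitochondrial genome is transcribed from both strands into long RNAs that are cut into the separate messages, often at the transfer RNAs between them. Levels of the messages of 1 precursor can then differ through their processing and decay.

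All 7 genes have 1 exon on the mitochondrial sequence (MT) of the OryCun2.0 build. ND1 (ENSOCUG00000029086) lies at positions 2749 to 3703 and ND2 (ENSOCUG00000029090) at 3920 to 4963. ND3 (ENSOCUG00000029105) lies at 9491 to 9837, ND4L (ENSOCUG00000029107) at 9906 to 10202 and ND4 (ENSOCUG00000029108) at 10196 to 11573. ND5 (ENSOCUG00000029112) lies at 11772 to 13583, and ND6 (ENSOCUG00000029113) at 13579 to 14103 on the minus strand. The listed lengths are 955, 1044, 347, 297, 1378, 1812 and 525 bases from ND1 to ND6 in map order. Those of ND2, ND4L, ND5 and ND6 are whole numbers of codons (348, 99, 604 and 175), whereas ND1, ND3 and ND4 end 1, 2 and 1 bases into a further codon. In mammalian mitochondria such an incomplete stop codon is completed by the poly(A) tail. ND4L and ND4 overlap by 7 bases and ND5 and ND6 by 5 bases.

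This layout bears on the counts. By the defaults of featureCounts, reads were counted without regard to strand, and a read touching more than 1 gene was dropped. No gap, or a gap of at most 7 bases, separates each ND gene from its neighbours. Reads that cross those borders were therefore lost, and the short genes ND3 and ND4L have the most border for their length. Reads with several alignments, such as those shared with nuclear copies of mitochondrial DNA, were dropped as well. For ND6, reads of its message and of transcripts from the opposite strand cannot be told apart.

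Total counts ranged from 20100175 to 24064713 per library. Factors of the trimmed mean of M values (TMM), which correct library sizes, ranged from 0.842 to 1.09. PRP replicate 2 had the lowest factor, and it had counts on 17499 genes against 15796 to 15981 in the other libraries. The 22 mitochondrial genes under 200 bases, in the size class of transfer RNAs, held 0.0315% of its counts against 0.0115% to 0.0149% elsewhere. These features of PRP replicate 2 coincide with its high ND levels given below, and their part in those levels was not tested.

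The 7 genes together had 113605 and 96338 counts in noPRP replicates 1 and 2, and 101334 and 168635 counts in PRP replicates 1 and 2. This was 0.565% (95% Wilson interval 0.562 to 0.568) and 0.46% (0.457 to 0.463) of the noPRP libraries. In PRP it was 0.421% (0.419 to 0.424) and 0.708% (0.704 to 0.711). The intervals cover counting error only and treat counts as independent, which both ends of a read pair would not be. PRP thus holds both the lowest and the highest library, and the noPRP libraries lie between them. On the TMM-normalized scale the summed level was 5170 and 4239 counts-per-million (CPM) in noPRP and 4215 and 8410 CPM in PRP, or 4704 ± 658 and 6312 ± 2966 CPM (SD, n = 2 each). The PRP libraries differed by 1.995-fold, more than the group means did.

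Scaled by length, the levels of the 7 genes spanned a wide range and kept much of one order. Averaged over the 4 libraries, ND6 was highest at 1845 normalized CPM per kb of exon, followed by ND1 at 1015, ND5 at 891, ND4 at 769, ND2 at 659, ND3 at 409 and ND4L at 225. The counts of ND6 do not separate its message from transcripts of the opposite strand. ND6 held place 1, ND3 place 6 and ND4L place 7 in each of the 4 libraries. The positions in between were less fixed. ND1 was above ND5 in 3 of 4 libraries, with a mean log2 ratio of 0.12 ± 0.43 (SD over 4 libraries), and ND5 was above ND4 in 3 of 4, at 0.27 ± 0.40. Those neighbours do not differ beyond their spread. The other neighbours kept their order in 4 of 4 libraries, with mean log2 ratios of 0.74 ± 0.49 for ND6 over ND1, 0.24 ± 0.17 for ND4 over ND2, 0.78 ± 0.33 for ND2 over ND3 and 0.69 ± 0.67 for ND3 over ND4L. Some of these gaps nearly closed. ND6 was 1.02 times ND1 in noPRP replicate 2, ND3 was 1.04 times ND4L in PRP replicate 1, and ND2 stood at 0.95 and 0.923 of ND4 in PRP replicates 1 and 2.

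**Figure D1:**
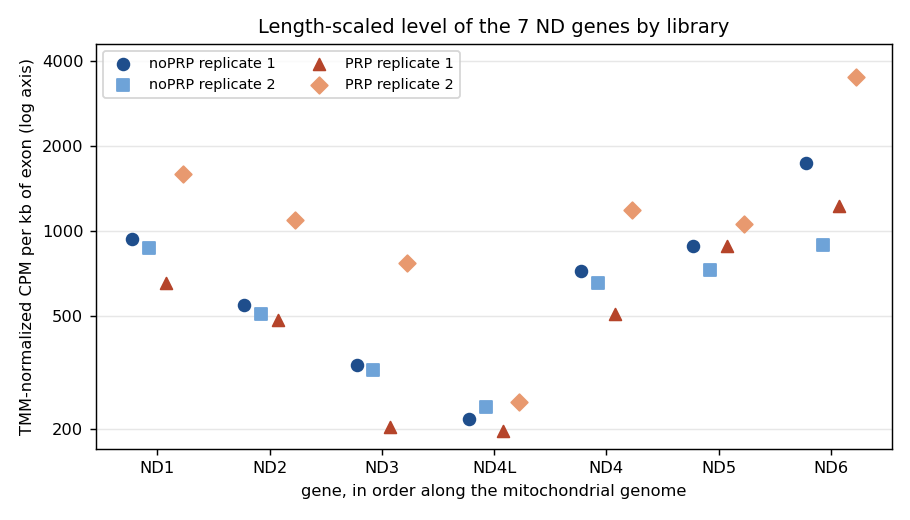
TMM-normalized CPM per kb of exon (log axis) for each ND gene in map order, with 1 point per library. ND6 is at the top and ND4L at the bottom in each library, and on this scale PRP replicate 2 holds the highest point of every gene.

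Among all 13 protein-coding mitochondrial genes, ND6 held place 3 by mean length-scaled level, after COX1 (7257 CPM per kb), a catalytic subunit of complex IV, and ATP6 (2257 CPM per kb). By library, ND6 held places 2 and 7 in noPRP and place 3 in both PRP libraries. The other 6 ND genes filled the lowest places, 8 to 13, by the mean and in both noPRP libraries. In the PRP libraries this order was broken by ND5 at place 7 in replicate 1 and by ND1 at place 7 in replicate 2. This order sets genes of different length, border and strand against each other and is a description with no test. How evenly the magnetic beads captured the different messages was not tested, which limits this order and that among the 7 ND genes. The place of ND6 rests on counts that may include transcripts of the opposite strand.

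Of the antiporter-like subunits, ND2 was at 572 and 531 normalized CPM in noPRP and at 507 and 1141 CPM in PRP. ND4, the middle one of these channels, was at 996 and 904 CPM in noPRP and at 704 and 1633 CPM in PRP. In both genes PRP replicate 1 was the lowest and PRP replicate 2 the highest library, so the groups overlap. ND5, at the far end of the membrane arm, was at 1604 and 1319 CPM in noPRP and at 1605 and 1929 CPM in PRP. ND5 is the only member whose groups do not overlap on this scale, and noPRP replicate 1 and PRP replicate 1 are all but equal. Without the TMM factors its groups do overlap (1754 and 1431 CPM against 1603 and 1623 CPM). Among all tested genes, 46.9% had groups that do not overlap on the TMM scale, so 1 of 7 members is below that background.

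Of the subunits near the quinone site, ND1, which forms much of the entrance for ubiquinone, was at 898 and 834 normalized CPM in noPRP and at 626 and 1521 CPM in PRP. ND3, whose flexible loop moves as the enzyme passes between its active and resting forms, was at 117 and 112 CPM in noPRP and at 70.7 and 267 CPM in PRP. The ND3 values are the widest spread within a group, with PRP replicate 2 at 3.78 times PRP replicate 1. ND4L, a small membrane subunit, was at 64.4 and 70.9 CPM in noPRP and at 58.2 and 74.2 CPM in PRP, and its libraries differ least, by at most 1.28-fold. Over total counts, without the TMM factors, it was at 70.4 and 76.9 CPM in noPRP and at 58.1 and 62.4 CPM in PRP, and its groups do not overlap. It is the 1 member of 7 of which this holds on that scale, where 47.7% of all tested genes had such groups. ND6 was at 919 and 468 CPM in noPRP and at 644 and 1844 CPM in PRP. It is the member with the widest range over the 4 libraries (3.94-fold) and the one that differs most between the noPRP libraries (1.96-fold, with ND5 next at 1.22-fold).

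The deviation of each gene from its own mean showed how far the members moved together. All 7 genes were highest in PRP replicate 2 on the TMM scale (5 of 7, without ND4L and ND5, when CPM were taken over total counts), and 5 of them were lower in PRP replicate 1 than in both noPRP libraries; the exceptions were ND5 and ND6, which were lowest in noPRP replicate 2. Between the PRP libraries the log2 difference, replicate 2 minus replicate 1, had a median of 1.21 over the 7 genes and ran from 0.27 (ND5) to 1.92 (ND3). For the tested genes as a whole the median of that difference was −0.04, and the median of its absolute value was 0.87. Between the noPRP libraries, replicate 1 minus replicate 2 had a median of 0.11 over the 7 genes. The values ran from −0.14 (ND4L) to 0.97 (ND6). All tested genes had a median absolute difference of 0.98 there. That measure has no sign and is unlike the median of the members, and the signed median of all tested genes was not computed for noPRP. Of the other 8 mitochondrial genes, 5 were highest in PRP replicate 2 and all 8 were lower in PRP replicate 1 than in both noPRP libraries.

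**Figure D2:**
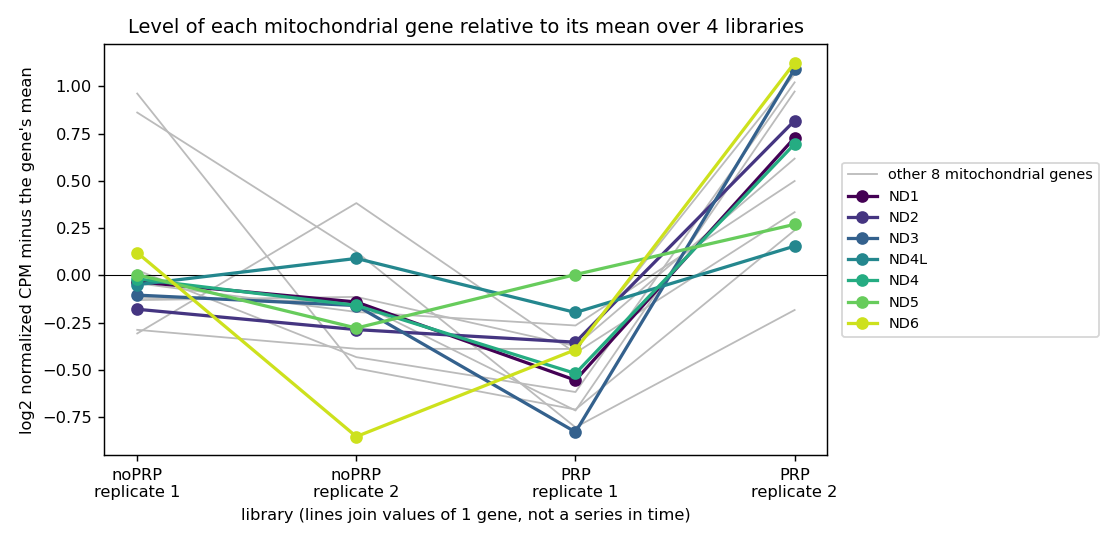
Log2 normalized CPM of each mitochondrial gene of at least 200 bases minus its mean over the 4 libraries. Colored lines are the ND genes and gray lines the other 8 genes; on this scale all 7 ND genes are highest in PRP replicate 2 (5 of 7 over total counts), ND4L and ND5 with the smallest excursions.

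Likeness of pattern was measured as the root mean square difference between a gene's centered log2 CPM and that of the summed ND counts over the 4 libraries, where 0 is the same pattern. ND2 (0.11), ND4 (0.13) and ND1 (0.15) were closer than the first percentile of all tested genes (0.152), and the other 4 members were not, with ND6 the farthest at 0.36. Each member is part of the sum it is compared with. Of the other 8 mitochondrial genes, ATP8 (0.11) and COX3 (0.12) were within that percentile, and 16S ribosomal RNA was the farthest at 0.70. Outside the mitochondrial sequence, only genes above a minimum average level were searched. The closest of them was ENSOCUG00000008594 (0.0235), with 44 listed exons at positions 14896000 to 15076297 of chromosome 18. Its counts were 2960 and 2564 in noPRP and 2628 and 4555 in PRP. The next was ENSOCUG00000015347 on the unplaced sequence GL018769, positions 283707 to 592621 (0.0275). Over 4 libraries some of 12707 genes will lie close to any pattern, and the median gene was at 0.83.

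Ratios between members do not depend on the scaling of a library. The steadiest of the 21 pairs was ND1 over ND4: per kb it was 1.30 and 1.33 in noPRP and 1.28 and 1.34 in PRP, although ND1 differed 2.43-fold and ND4 2.32-fold between the PRP libraries. ND1 over ND2 was 1.72 in both libraries without PRP, against 1.35 and 1.46 in PRP replicates 1 and 2, so it was lower in both PRP libraries. The exact two-sided permutation test of 2 against 2 libraries gave p = 0.3333, the smallest it can give, and an adjusted p of 1 over the 14 shares and ratios tested. Groups that do not overlap were found for 4 of the 21 ND pairs (ND1 over ND2, ND1 over ND6 and ND4L over ND5 lower in PRP, ND2 over ND4 higher in PRP). Over all 78 pairs of the 13 mitochondrial messages the share was 20.5%, which is close to that of the ND pairs.

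Other ratios varied far more between the PRP libraries than between the groups. ND3 over ND4L, neighbours on the map, was 1.55 and 1.36 per kb in noPRP and 1.04 and 3.09 in PRP. ND4L over ND4, which in mammals share a bicistronic message, was 0.3 and 0.364 in noPRP and 0.383 and 0.211 in PRP. The level of ND4L per kb was thus below that of ND4 in each library, under counting that drops reads in their overlap. ND4 over ND5 was 0.817 and 0.901 in noPRP and 0.577 and 1.11 in PRP. ND5 over ND6, which lie on opposite strands, was 0.506 and 0.816 in noPRP and 0.722 and 0.303 in PRP. Counts were taken without regard to strand, so this ratio need not be that of the messages. The PRP libraries hold both the lowest and the highest value of the first 3 of these pairs, and the lowest of ND5 over ND6. The exact permutation p ran from 0.667 to 1.

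**Figure D3:**
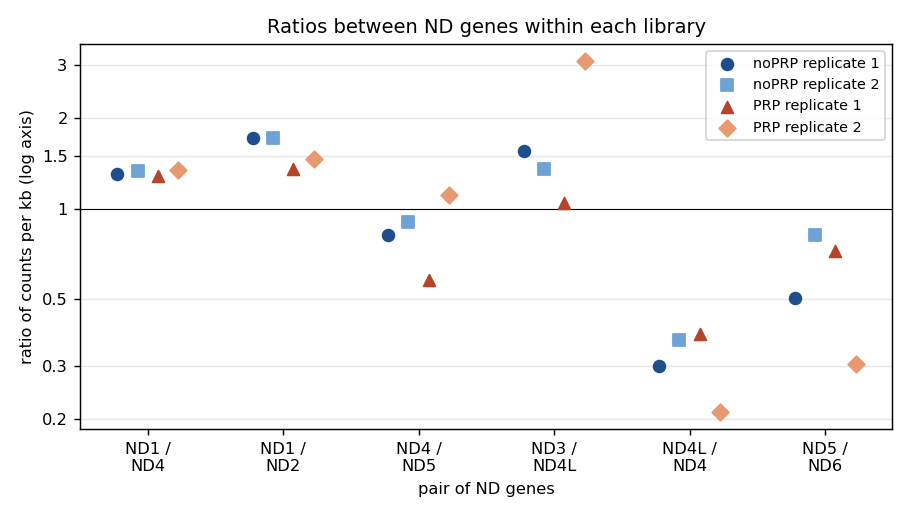
Ratio of counts per kb (log axis) for 6 pairs of ND genes, with 1 point per library and a line at 1. ND1 over ND4 stays between 1.28 and 1.34, whereas ND3 over ND4L runs from 1.04 to 3.09.

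As a share of the counts of the 13 mitochondrial messages, the 7 ND genes held 27.4% (95% Wilson interval 27.2 to 27.5) and 18.5% (18.4 to 18.6) in noPRP and 26.1% (25.9 to 26.2) and 26.0% (25.9 to 26.1) in PRP. The means were 22.9% ± 6.3 and 26.0% ± 0.052 (SD, n = 2 each), with an exact permutation p of 1. The low value of noPRP replicate 2 went with a high share of COX1, 61.7% there against 46.4%, 50.5% and 42.3% in noPRP replicate 1 and PRP replicates 1 and 2. Without COX1 in the denominator the difference, PRP minus noPRP, turned from 3.10 to −0.83 percentage points. Without noPRP replicate 2 it was −1.33 points.

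The single shares had Wilson intervals of at most 0.094 points to either side. ND2 held 3.03% and 2.32% in noPRP and 3.14% and 3.53% in PRP and was the only member whose shares do not overlap (exact permutation p = 0.3333, adjusted p = 1); over the 13 messages 15.4% had such shares. ND5 held 8.49% and 5.76% in noPRP and 9.93% and 5.96% in PRP, and ND6 held 4.86% and 2.04% against 3.98% and 5.70%. Within the 7 genes, ND5 made up 31.0% and 31.1% of the ND counts in noPRP, against 38.1% and 22.9% in PRP. That is the largest difference in makeup between the PRP libraries, whose means (30.5% ± 11) and those of noPRP (31.1% ± 0.064; SD, n = 2 each) lie close together.

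None of the 7 genes passed the test between PRP and noPRP. In edgeR's quasi-likelihood test, with Benjamini-Hochberg adjustment across the 12707 genes tested, 0 of 7 members had an adjusted p under 0.05, where 0.858% of all tested genes passed. At an unadjusted p under 0.05 the count was also 0, against 13.3% of all tested genes, and DESeq2's Wald test called 0 of 7, where it called 5.73% of all tested genes. All 7 members were tested, and 6 had a positive and 1 a negative log2 fold change, where 51.1% of all tested genes were positive. The median of the members was 0.31 against 0.04 over all tested genes. ND6 had the largest value, 0.84 (SE 0.84, edgeR adjusted p = 0.646). ND2 was at 0.58 (SE 0.79), ND3 at 0.56 (SE 0.81), ND1 at 0.31 (SE 0.80), ND4 at 0.30 (SE 0.80), ND5 at 0.27 (SE 0.78) and ND4L at −0.03 (SE 0.74), with edgeR adjusted p from 0.734 to 0.986. The 95% intervals were wide, from −0.98 to 2.66 for ND6 and from −1.62 to 1.56 for ND4L, so the test does not show that the levels were alike.

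The sign of most members rested on PRP replicate 2. Without it the log2 fold change was −0.43 for ND1, −0.08 for ND2, −0.65 for ND3, −0.17 for ND4L, −0.39 for ND4, 0.17 for ND5 and −0.08 for ND6. Without PRP replicate 1 it was 0.80, 1.03, 1.21, 0.12, 0.77, 0.38 and 1.38 in the same order. ND5 was the only member with a positive value under each library left out. In these fits the lone PRP library is assumed to vary like the noPRP libraries.

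The other genes of the mitochondrial genome also stayed under the threshold. Of the 8, which code for the ribosomal RNAs, 3 subunits of complex IV, 2 of ATP synthase and cytochrome b of complex III, 0 passed the edgeR test in either direction, with adjusted p from 0.574 to 0.973. Their log2 fold changes ran from −0.999 (16S) to 0.85 (ATP6), with 5 positive, 3 negative and a median of 0.30. The median of their 6 messages alone was 0.41. Whether ND genes differed from them was not tested. The nuclear-encoded subunits and assembly factors of complex I, and the regulators of mitochondrial transcripts, were not analysed here, because the identifiers carry no names.

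**Figure D4:**
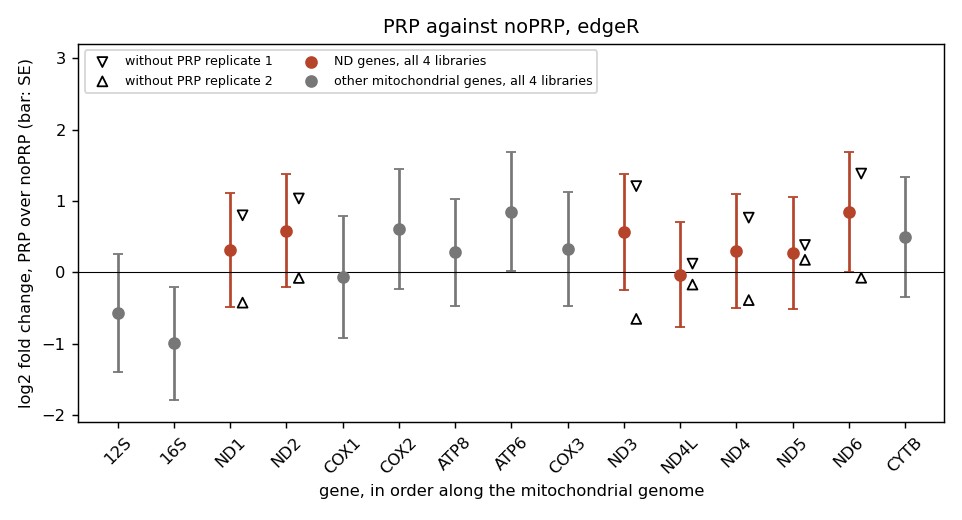
Log2 fold change, PRP over noPRP, of the 15 mitochondrial genes in map order from edgeR, with bars of 1 SE and ND genes in red. Open triangles give the ND values without PRP replicate 1 or 2, which lie on opposite sides of 0 for every ND gene except ND5.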

How the data were processed

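Each library has a deposited table of raw counts, the number of reads on each gene. Per the submitters' processing notes, reads were aligned with STAR 2.7.2a and counted with featureCounts 1.6.5 on OryCun2.0. Per the file headers, counts were summed over exons of Ensembl release 98 genes, with no option for strand, read pairs, multiple alignments or overlaps, so by default both ends of a read pair count. Genes were kept by filterByExpr and normalized by TMM. PRP was compared with noPRP in R 4.3.3 by edgeR 4.0.16 (glmQLFit, glmQLFTest) on all 12707 kept genes, with no term but the group and with Benjamini-Hochberg adjustment. Standard errors and 95% intervals come from the F statistic, with 2 residual and, for the median gene, 11.4 prior degrees of freedom. Shares and ratios used exact permutation tests in SciPy 1.17.1. Replicate numbers are those of the sample titles; the alignment file names in the headers do not carry these numbers. Alternatives were DESeq2 1.42.0, limma-voom (limma 3.58.1), other scalings, filters and denominators, a replicate block, and each library left out. The members and lists were chosen with earlier results of these data known. The 7 members are all named, with the 2 nuclear genes closest to them in pattern among those above a minimum average level.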

Additional observations from a re-analysis of the deposited data

How the results depend on the processing

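With 2 libraries per group, an exact permutation test cannot give a p under 0.3333, and the rarest member, ND4L, had at least 1398 counts in a library. Under 14 alternatives for each of the 7 genes, 0 of 98 values had an adjusted p under 0.05 (lowest 0.29), and the count of members that passed was 0 in every one. The labels do not pair libraries by replicate number. Same-numbered libraries had deviations from their group mean with a correlation of −0.63 across genes. The crossed pairs had 0.63, a mirror value that is fixed when each group has 2 libraries. A replicate block gave 57 called genes over the whole table (46 rising, 11 falling) against 109 without it, and 0 ND genes. The crossed pairing, chosen after the data were examined, gave 3588 called genes and 0 ND genes. The numbers of called genes under the 2 pairings therefore do not show which libraries belong together.

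Called genes over the whole table numbered 60 with upper-quartile factors (46 rising, 14 falling, against 68 and 41), 202 with the mitochondrial mRNA counts as library size, 565 without a filter (230 and 335) and 728 with DESeq2's test (306 and 422). Leaving out a library gave 114 to 571, with 571 without noPRP replicate 1 (138 and 433) and 165 without PRP replicate 1. The cause was not tested.

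The median log2 fold change of the 7 ND genes, 0.31, was 0.019 with total counts only, a scaling that lowered the median of all tested genes by 0.24; relative to that median it was 0.22. With the mitochondrial mRNA counts as library size it was 0.16. Leaving out a library gave −0.17 to 0.80. The lowest and highest values of single genes without a library were −0.43 and 0.80 for ND1, −0.080 and 1.03 for ND2, −0.65 and 1.21 for ND3, −0.17 and 0.12 for ND4L, −0.39 and 0.77 for ND4, 0.13 and 0.43 for ND5, and −0.077 and 1.42 for ND6. No other alternative turned a sign.

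The share of the 7 genes in the mitochondrial messages differed by 3.10 percentage points, PRP minus noPRP, by −1.33 to 7.54 without a library and by −0.83 without COX1, a denominator chosen after the data were examined. Without COX1 the single shares differed by −1.20 (ND1), −0.059 (ND3), −1.30 (ND4) and −0.24 points (ND5), against 0.093, 0.078, 0.094 and 0.82 with it. Per kb, ND1 and ND4 differed by −0.16 and −0.12 points. Without a library the differences ran from −0.46 to 0.65 for ND1, 0.30 to 1.02 for ND2, −0.12 to 0.27 for ND3, −0.096 to 0.035 for ND4L, −0.57 to 0.76 for ND4, −1.16 to 2.80 for ND5 and −0.023 to 2.80 for ND6.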
